A study of Rattus norvegicus with 6 samples.

Results

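The core circadian clock loop was described in sensory tissue of 3 male rats with painful diabetic neuropathy (PDN), the pain that can follow nerve damage in diabetes, and 3 male control rats. The loop was taken as 10 genes looked up by name among the 22536 genes of the deposited expression table: Per1, Per2, Per3, Cry1, Cry2, Ciart, Nr1d1, Nr1d2, Arntl and Clock, and all 10 were found. The labels give sensory neuron as the tissue of every sample, while the series title names the dorsal root ganglion, which holds the cell bodies of sensory neurons together with glia and other cells. The sources used here give neither strain nor age, nor the way diabetes was produced, nor the hour of the day at which tissue was taken. Earlier results of these 6 libraries, on the difference between PDN and control, were known when the 10 genes were chosen, so that difference is given below as a description, without a test.

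The clock is a transcription loop found in most cells of the body. BMAL1, the product of Arntl, pairs with CLOCK and switches on genes through E-boxes, among them the Per, Cry and Nr1d genes and Ciart. PER and CRY proteins then enter the nucleus and hold BMAL1 and CLOCK back, while the nuclear receptors encoded by Nr1d1 and Nr1d2 (REV-ERBs) repress Arntl. In mouse and rat tissues the RNA of Arntl peaks at about the opposite time of day to that of Nr1d1 and of the output gene Dbp, and Per1 can also be switched on directly by glucocorticoid hormones and by cAMP signals.

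Levels are FPKM, that is fragments scaled to transcript length and library size, as the authors deposited them, and can therefore be compared between genes. A depth of 51856000 to 62786000 fragments per library was derived by comparing the deposited tables. It rests on an assumption given under the processing and is no direct count. Of all genes, 13282 reached an FPKM of 1 in 3 or more libraries and were tested. A marker of the labelled tissue was high in all libraries: the neuronal tubulin gene Tubb3 was at 1490 to 1548 FPKM in PDN and 1501 to 1688 in controls. The libraries differed in skeletal muscle RNA. The sum of 10 muscle genes was 37.7, 4.13 and 197 FPKM in PDN 1, 2 and 3, against 3.68, 629 and 4.02 in controls 1, 2 and 3. Since the samples are bulk tissue, fewer cells of a type and less RNA per cell cannot be told apart.

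Per1, Per2 and Per3, the period genes, all lay higher in PDN. Per1 (ENSRNOG00000007387), at 55687050 to 55695994 on chromosome 10 in the deposited table, whose genome build is not given in the sources used here, was at 11.8, 6.56 and 7.22 FPKM in PDN 1, 2 and 3, against 3.93, 4.66 and 3.26 FPKM in controls 1, 2 and 3. All PDN libraries lay above all controls, and PDN 1 stood well above the other 2 PDN libraries. The means were 8.53 ± 2.86 FPKM in PDN and 3.95 ± 0.698 in the 3 controls (SD, n = 3 each), a ratio of 2.16. On the log2(FPKM + 1) scale the difference was 0.92 ± 0.21 (SE), and it was 0.68 without PDN 1. Here and below, SE is the moderated value of the limma fit, which also draws on the variance of the other tested genes.

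Per2, the partner that with Per1 carries most of the repression in mice, had low values. The gene (ENSRNOG00000020254; chromosome 9, 98555169 to 98597359) was at 2.29, 2.16 and 2.42 FPKM in PDN and at 1.54, 0.895 and 1.04 in controls. The PDN libraries were close to each other, whereas control 1 lay above the other 2 controls. The ratio of the means was 1.98, with 2.29 ± 0.131 FPKM in PDN and 1.16 ± 0.337 in the 3 controls (SD, n = 3 each), and the log2 difference was 0.62 ± 0.13 (SE). Its level was so near the pseudocount of 1 that this scale compresses it, and with a pseudocount of 0.1 the log2 difference was 0.96.

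The promoter of Per2 is shown because it was the only one among the loop genes with a match to both an E-box-like motif and a D-box. The sequence is RefSeq's for GRCr8, chr9:99496944-99497243 on the minus strand, 250 bases before to 50 after the annotated start. Capitals mark the D-box TTATGTAA, which begins at -192, and the E'-box CACGTT, which begins at -62, counted to the leftmost base of the match, with -1 the base before the start.
Per2 promoter: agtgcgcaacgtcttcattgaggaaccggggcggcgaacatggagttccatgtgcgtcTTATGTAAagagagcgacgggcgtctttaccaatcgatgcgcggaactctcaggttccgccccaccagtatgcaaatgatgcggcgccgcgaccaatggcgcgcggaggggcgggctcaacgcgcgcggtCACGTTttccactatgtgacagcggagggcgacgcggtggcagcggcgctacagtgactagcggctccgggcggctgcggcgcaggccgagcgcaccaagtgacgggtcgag
Over all 33469 promoter windows of this length, searched on both strands, 0.893% held TTATGTAA and 4.83% held CACGTT. A match is a description of letters and not a binding site.

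Per3, which in mice is not needed for rhythm, had the highest FPKM of the 3 in each group. The gene (ENSRNOG00000018413; chromosome 5, 168086998 to 168123395) was at 10.5, 11.4 and 13.6 FPKM in PDN, against 9.73, 9.06 and 9.43 in controls. The groups did not overlap, by a gap of 0.754 FPKM, and PDN 3 was the highest library. The means were 11.8 ± 1.59 FPKM in PDN and 9.41 ± 0.332 in the 3 controls (SD, n = 3 each), a ratio of 1.26 and a log2 difference of 0.29 ± 0.10 (SE). It was 0.17 when the libraries richest in muscle RNA, PDN 3 and control 2, were both left out, and 0.52 with the deposited whole-number table.

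The cryptochrome genes differed little. Cry1 (ENSRNOG00000006622; chromosome 7, 24534615 to 24634097), a strong repressor of BMAL1 and CLOCK, was at 2.06, 2.91 and 2.30 FPKM in PDN and at 2.43, 2.10 and 2.62 in controls. The control range lay wholly within that of PDN, and the log2 difference was 0.01 ± 0.12 (SE). The sign of that difference turned in 3 of 12 alternative settings, which include a replicate block that cannot change it. Cry2 (ENSRNOG00000007478; chromosome 3, 81314149 to 81344110) was at 25.7, 25.2 and 24.8 FPKM in PDN, against 25.0, 23.2 and 23.7 in controls, with a log2 difference of 0.07 ± 0.06 (SE). Only control 1 reached into the PDN range. The Cry2 log2 difference stayed between 0.05 and 0.10 in every alternative tried.

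Ciart, also called Chrono, encodes a further repressor of BMAL1 and CLOCK. The gene (ENSRNOG00000042717; chromosome 2, 197987705 to 197991574) was at 1.26, 0.840 and 1.48 FPKM in PDN, against 0.403, 0.389 and 0.432 in controls. Every PDN library was above every control, and the controls lay close together. The ratio of the means, 1.19 ± 0.324 in PDN over 0.408 ± 0.0219 in the 3 controls (SD, n = 3 each), was 2.92. Only 2 libraries reached an FPKM of 1, so Ciart did not pass the filter on low values and did not enter the fit.

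The Ciart promoter is shown because it held more E-boxes than any other window of the loop. In the RefSeq sequence for GRCr8, chr2:186112197-186112496 on the minus strand, capitals mark the E-box CACGTG at -93, -35 and -21.
Ciart promoter: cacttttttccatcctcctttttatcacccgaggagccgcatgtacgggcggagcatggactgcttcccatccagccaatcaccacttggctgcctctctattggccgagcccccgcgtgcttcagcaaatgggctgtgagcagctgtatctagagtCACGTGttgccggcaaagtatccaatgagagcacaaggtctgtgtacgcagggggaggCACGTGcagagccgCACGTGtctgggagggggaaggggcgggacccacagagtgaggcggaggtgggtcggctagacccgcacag
The E-box was found in 6.42% of all promoter windows.

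**Figure D1:**
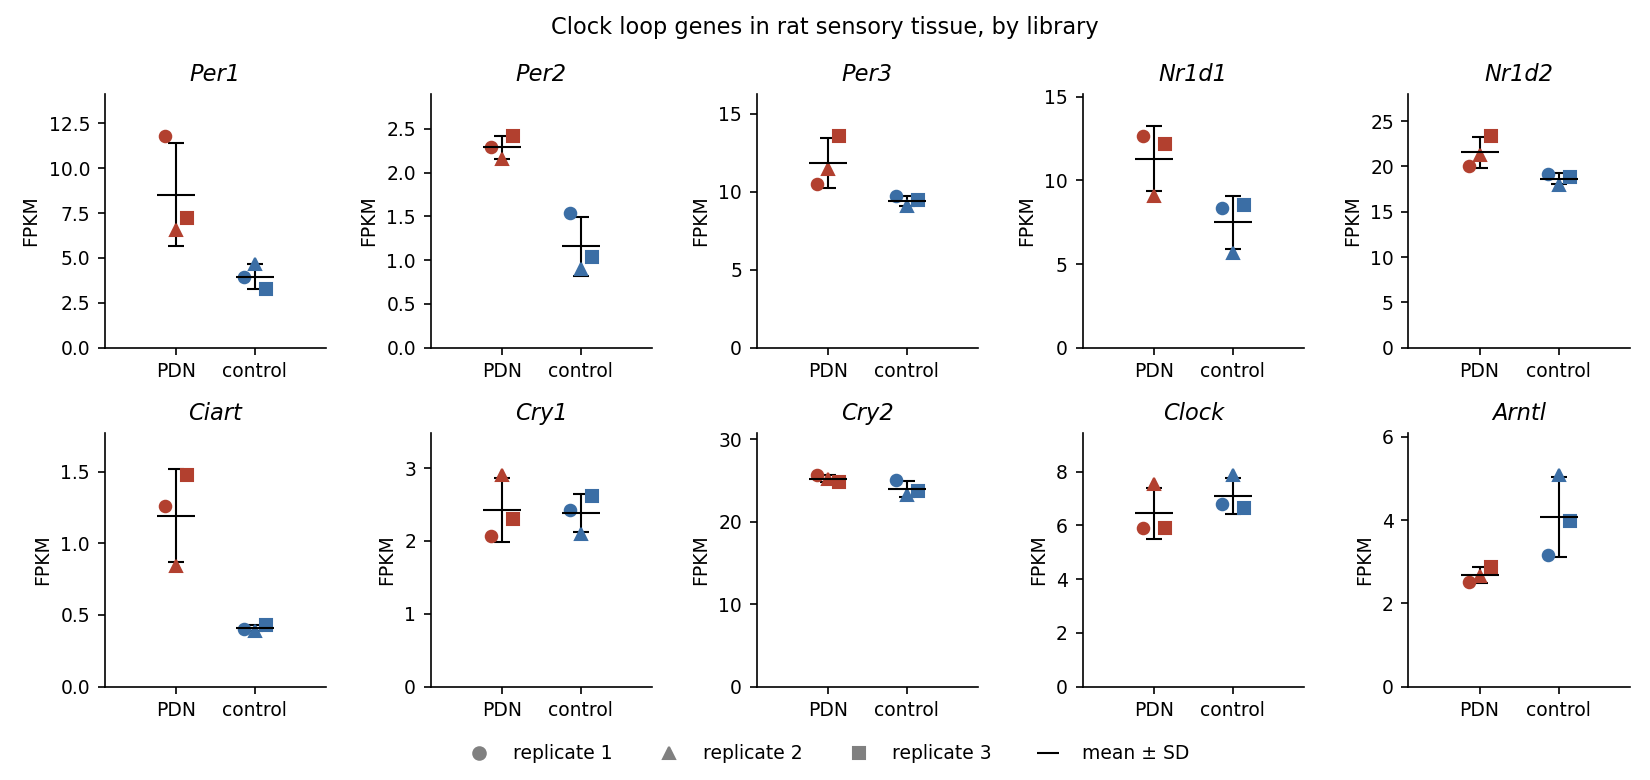
FPKM of the 10 clock loop genes in each library, with PDN on the left and control on the right of each panel. Points are libraries, and bars show the mean and SD of 3 libraries. For Per1, Per2, Per3, Nr1d1, Nr1d2 and Ciart the lowest PDN library lies above the highest control, and for Arntl the highest PDN library lies below the lowest control, while Cry1, Cry2 and Clock overlap.

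Both REV-ERB genes lay higher in PDN. Nr1d1 (ENSRNOG00000009329; chromosome 10, 86683875 to 86690815) was at 12.7, 9.07 and 12.2 FPKM in PDN, against 8.33, 5.65 and 8.51 in controls. PDN 2 and control 2 were each the lowest library of their group, and PDN 2 was only 0.560 FPKM above the highest control. The means were 11.3 ± 1.95 FPKM in PDN and 7.50 ± 1.60 in the 3 controls (SD, n = 3 each), a ratio of 1.51 and a log2 difference of 0.54 ± 0.17 (SE). The difference was 0.37 without control 2, and 0.32 without both control 2 and PDN 3.

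Nr1d2 (ENSRNOG00000046912; chromosome 15, 8730871 to 8757165) was at 20.0, 21.2 and 23.4 FPKM in PDN, against 19.2, 17.9 and 18.9 in controls. The groups did not overlap, with 0.850 FPKM between PDN 1 and control 1. The means were 21.5 ± 1.69 FPKM in PDN and 18.7 ± 0.651 in the 3 controls (SD, n = 3 each), a ratio of 1.15 and a log2 difference of 0.20 ± 0.08 (SE). Without control 2 and PDN 3 it was 0.11.

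RefSeq gives Nr1d1 a pair of annotated starts on the minus strand of chromosome 10 in GRCr8, and both windows are shown because each held an E-box or E'-box. Capitals mark the E'-box at -174 in the first window, chr10:84231763-84232062, where it is read on the opposite strand as AACGTG, and the E-box CACGTG at -191 in the second, chr10:84229405-84229704.
Nr1d1 promoter 1: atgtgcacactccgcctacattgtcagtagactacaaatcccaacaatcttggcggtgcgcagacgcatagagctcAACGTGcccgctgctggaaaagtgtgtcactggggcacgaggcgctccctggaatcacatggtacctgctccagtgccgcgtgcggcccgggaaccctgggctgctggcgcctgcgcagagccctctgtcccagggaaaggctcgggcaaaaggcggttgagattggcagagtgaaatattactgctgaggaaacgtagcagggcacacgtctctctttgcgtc
Nr1d1 promoter 2: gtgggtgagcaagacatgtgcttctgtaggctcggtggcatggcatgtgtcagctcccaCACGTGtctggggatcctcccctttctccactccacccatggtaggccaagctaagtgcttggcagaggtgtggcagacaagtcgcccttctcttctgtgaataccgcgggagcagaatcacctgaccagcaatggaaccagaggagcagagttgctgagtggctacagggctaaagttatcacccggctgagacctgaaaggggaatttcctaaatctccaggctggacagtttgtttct

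Of the activators, Arntl was lower in PDN. The gene (ENSRNOG00000014448; chromosome 1, 178039063 to 178137465) was at 2.51, 2.66 and 2.89 FPKM in PDN, against 3.17, 5.09 and 3.97 in controls. All PDN libraries lay below all controls, by 0.281 FPKM at the nearest, and the controls were spread more widely than the PDN libraries. The means were 2.69 ± 0.188 FPKM in PDN and 4.08 ± 0.965 in the 3 controls (SD, n = 3 each), a ratio of 0.660 and a log2 difference of -0.44 ± 0.14 (SE). Without control 2, the control with most muscle RNA and the highest Arntl, the difference was -0.30.

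Clock, which encodes the partner of BMAL1 (ENSRNOG00000002175; chromosome 14, 34446616 to 34502218), was at 5.89, 7.54 and 5.91 FPKM in PDN, against 6.79, 7.88 and 6.64 in controls. The groups overlapped through PDN 2, and the log2 difference was -0.13 ± 0.11 (SE). That value moved with single libraries: it was -0.07 without PDN 1, -0.23 without PDN 2, -0.08 without PDN 3 and -0.06 without control 2. Without both control 2 and PDN 3 it was -0.01, and with the deposited whole-number table -0.26.

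The Arntl promoter is shown because REV-ERBs and the ROR activators act on this gene through elements with the half-site AGGTCA, which the window held at -15. The sequence is RefSeq's for GRCr8 under the newer symbol Bmal1, chr1:176766078-176766377 on the plus strand, with the half-site in capitals.
Arntl promoter: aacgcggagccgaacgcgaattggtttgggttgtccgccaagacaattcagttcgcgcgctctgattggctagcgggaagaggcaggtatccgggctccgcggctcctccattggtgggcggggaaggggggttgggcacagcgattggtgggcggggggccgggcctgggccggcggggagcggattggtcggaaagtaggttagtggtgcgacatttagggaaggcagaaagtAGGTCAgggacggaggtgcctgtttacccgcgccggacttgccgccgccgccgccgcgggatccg
This half-site occurred in 16.2% of all windows. RefSeq windows were matched for 9 of the 10 genes, in 11 windows, and Cry1 is named only. Besides those printed, Cry2 held an E'-box and Nr1d2 the AGGTCA half-site. The cAMP element TGACGTCA, present in 1.83% of all windows, was in no window of the loop genes. The search covered exact matches from 250 bases before to 50 after an annotated start. An element farther away or with other letters would be missed.

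Set against all genes, 9 of the 10 loop genes were tested, 7 with a positive and 2 with a negative estimate, and their median log2 difference was 0.20. Over the 13282 tested genes, 5758 estimates were positive and 7524 negative, with a median of -0.02. Over all tested genes, 0 (0%) passed an adjusted p of 0.05 in limma. The lowest adjusted p over all genes was 0.0737, and at an unadjusted p under 0.05 limma gave 243 higher and 384 lower genes. That share of higher genes, 38.8%, was 50.4% with median-of-ratios and 52.5% with upper-quartile scaling. The groups did not overlap for 6 of the 9 tested loop genes, 5 higher and 1 lower in PDN. The background for that count was 9.93% of tested genes, 3.69% higher and 6.24% lower. As the genes were chosen with this contrast known, nothing is read from their count.

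**Figure D2:**
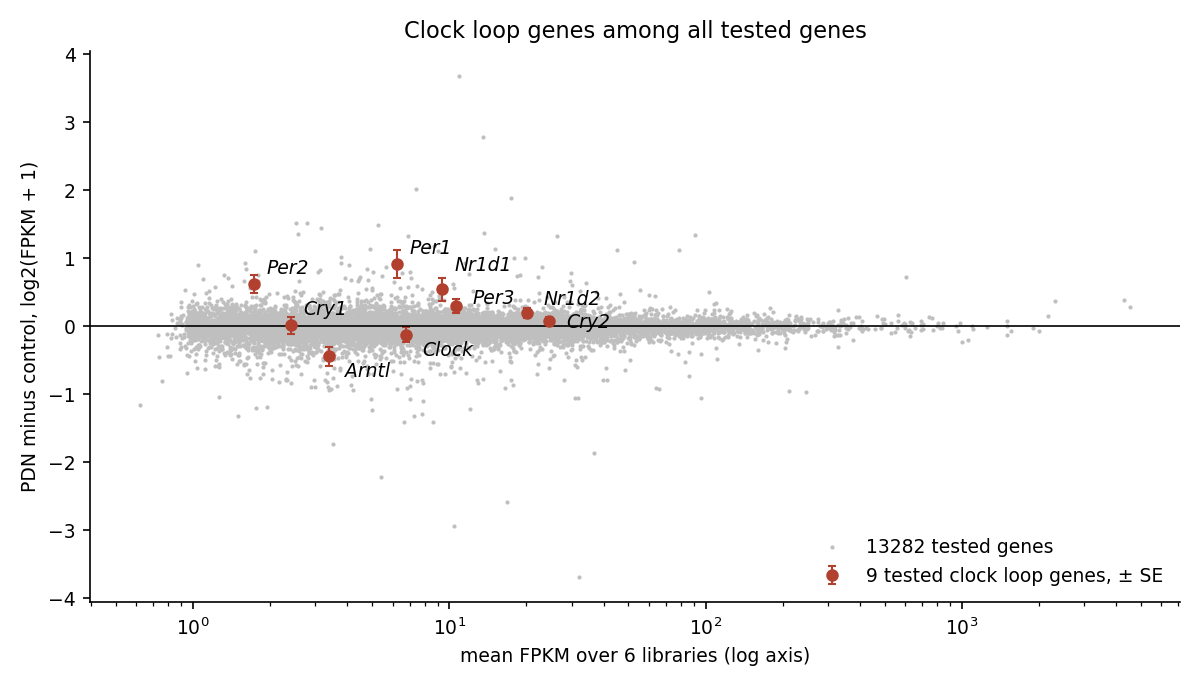
Differences of log2(FPKM + 1), PDN minus control, against mean FPKM on a log axis, for 13282 tested genes in grey and the 9 tested clock loop genes in red with their SE. Per1, at 0.92, and Arntl, at -0.44, mark the ends of the loop genes, and Cry1 and Cry2 lie near 0.

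Ratios of FPKM between loop genes within a library do not depend on how libraries are scaled to each other. The FPKM of Per2 over that of Arntl was 0.912, 0.810 and 0.838 in PDN 1, 2 and 3, against 0.485, 0.176 and 0.261 in controls 1, 2 and 3. The PDN libraries were alike in this ratio, at 0.853 ± 0.0524, and the controls were spread more widely, at 0.307 ± 0.160 (SD, n = 3 each). As a difference of log2(FPKM + 1) values, PDN minus control, it came to 1.07, and with a pseudocount of 0.1 to 1.52. This form depends on the pseudocount and, through it, on scaling.

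Nr1d1 over Arntl was 5.04, 3.40 and 4.21 in PDN, against 2.63, 1.11 and 2.14 in controls. Per1 over Arntl was 4.70, 2.46 and 2.50 in PDN, against 1.24, 0.915 and 0.821 in controls. For all 3 ratios the lowest PDN library was above the highest control. That follows from the single genes, since Per1, Per2 and Nr1d1 lay wholly higher and Arntl wholly lower in PDN. The 3 ratios also share Arntl, so they add no separate result, and these genes were chosen with the contrast known. Arntl over Clock was 0.427, 0.353 and 0.488 in PDN and 0.467, 0.646 and 0.598 in controls, and overlapped through PDN 3 and control 1.

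**Figure D3:**
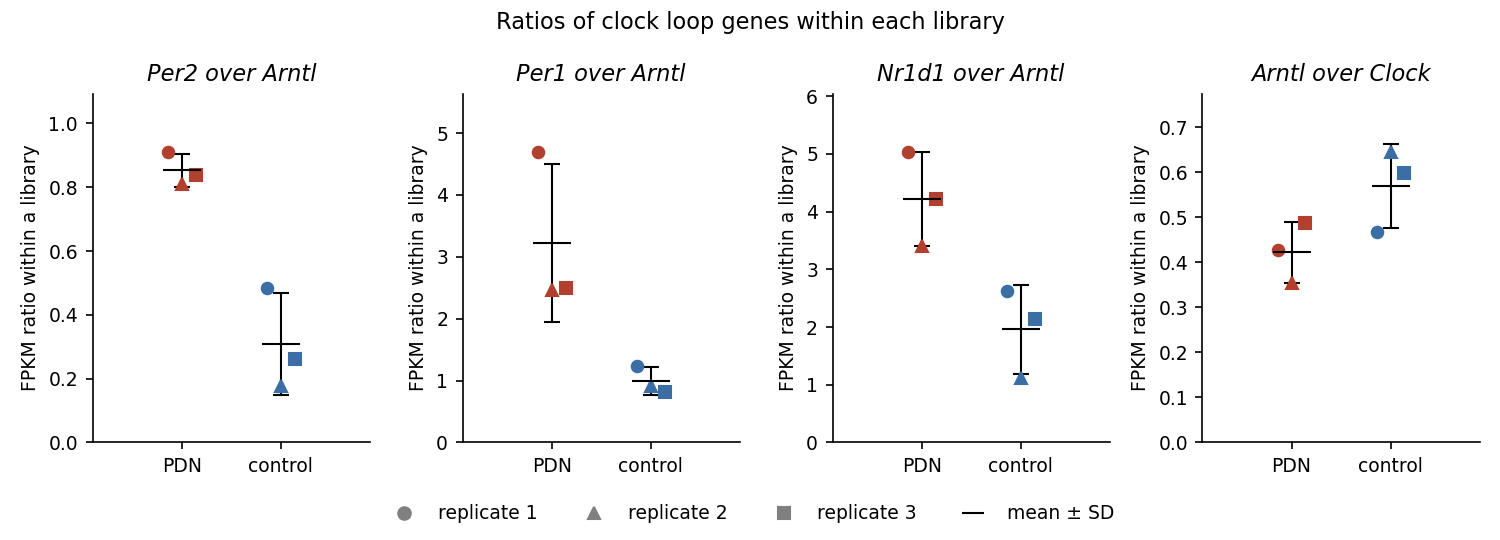
FPKM ratios within each library for Per2, Per1 and Nr1d1 over Arntl and for Arntl over Clock, with PDN on the left. Points are libraries and bars the mean and SD of 3. Control 1 is the control nearest to PDN in all 4 panels, for example at 0.485 in Per2 over Arntl, where PDN lies between 0.810 and 0.912.

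The order of the loop genes by level was much the same in both groups. In PDN the means ran from Cry2 (25.2 FPKM) over Nr1d2 (21.5), Per3 (11.8), Nr1d1 (11.3), Per1 (8.53), Clock (6.45), Arntl (2.69), Cry1 (2.42) and Per2 (2.29) to Ciart (1.19). The ranges of neighbours overlapped from Per3 through Clock and from Arntl through Per2. In controls Cry2 (24.0 FPKM) and Nr1d2 (18.7) also led and Per2 (1.16) and Ciart (0.408) came last, but Arntl (4.08) and Per1 (3.95) stood next to each other with overlapping ranges. Nr1d1 and Clock overlapped there as well. Per1 had a higher mean than Clock in PDN, and a lower one than Arntl in controls. Cry2 was more abundant than 76.9% of the tested genes and Per2 than 8.69%.

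Within the groups, Per1 and Nr1d1 varied most and Cry2 least. The SD of log2(FPKM + 1) about the group means was 0.32 for Per1, 0.27 for Nr1d1 and 0.20 for Arntl, and 0.04 for Cry2. The median over all tested genes was 0.12. Among tested genes of similar level, 10 equal bins by mean FPKM, 93.4% had a smaller SD than Per1, 94.3% than Nr1d1 and 76.7% than Arntl, while 6.10% had a smaller SD than Cry2.

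The order of the 3 libraries within each group was compared for the 45 pairs of loop genes. Per3 and Nr1d2 had the same order in both groups, from PDN 1 up to PDN 3, and from control 2 up to control 1. Cry2 and Arntl had opposite orders in both groups, as had Clock and Nr1d1, and Per1 and Cry1. These 4 pairs were picked by their order, with 3 libraries a group, and are a description only. With the group means removed, Arntl and the mean of Per1, Per2, Per3, Nr1d1 and Nr1d2 had a Pearson correlation of -0.57 and a Spearman correlation of -0.71 over the 6 libraries. Without controls 1 and 2, the libraries farthest from the median of Arntl, Pearson's value was 0.03, so the value rests on those 2 controls.

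Glucocorticoid-responsive genes were listed beside the loop because Per1 is one of them. Fkbp5, an inhibitory chaperone of the glucocorticoid receptor, was at 18.9, 8.48 and 6.09 FPKM in PDN 1, 2 and 3, against 6.85, 7.11 and 7.35 in controls 1, 2 and 3. Zbtb16, a zinc finger gene, was at 12.8, 2.09 and 2.37 FPKM in PDN, against 1.75, 1.93 and 1.63 in controls. Sgk1, a hormone-induced kinase gene, was at 28.7, 15.3 and 16.2 FPKM in PDN, against 14.2, 17.9 and 15.3 in controls. PDN 1, the library with the highest Per1, was also the highest for these 3 genes. For Fkbp5, PDN 2 lay above all controls and PDN 3 below them, and for Sgk1 both lay within the control range. For Zbtb16 they lay 0.161 FPKM or more above the highest control.

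Tsc22d3, which encodes the mediator GILZ, was likewise highest in PDN 1, at 158, 118 and 121 FPKM in PDN against 113, 129 and 118 in controls. Klf9, a transcription factor gene, was at 49.6, 30.6 and 32.7 FPKM in PDN and at 35.8, 32.1 and 35.3 in controls. Over the list, 14 of 14 genes had a positive estimate, with a median log2 difference of 0.27, and none passed over all genes (lowest limma adjusted p = 0.909). That count rested on PDN 1: without it, 8 estimates were positive and 6 negative, with a median of 0.05. At an unadjusted p under 0.05 limma gave 4 of the 14 genes, against 4.72% of all tested genes. Without PDN 1 it gave 1 of the 14, beside 208 higher and 254 lower of the 13282 tested genes. The groups did not overlap for 5 genes, all higher in PDN, against 3.69% of all tested genes. These were Zbtb16 and, named after their values were seen, Ddit4, Cdkn1a, Mt2A and Angptl4. Without PDN 1 the count was also 5, but groups separate more easily with fewer libraries. The share of all genes without overlap was not computed for that setting. PDN 1 was the highest PDN library for 12 of the 14 genes. The sum of the 14 genes was 402, 262 and 260 FPKM in PDN, against 242, 267 and 255 in controls. The part of the glucocorticoid-responsive genes' level in the Per1 values was not tested.

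Immediate early genes, which follow neuronal activity within minutes, did not share one order of libraries. Fos was at 2.34, 5.26 and 3.27 FPKM in PDN, against 5.76, 2.61 and 3.15 in controls. Egr1 was at 2.90, 4.81 and 3.59 FPKM in PDN, against 5.43, 3.76 and 3.70 in controls, and Junb at 7.51, 11.4 and 8.54 FPKM in PDN, against 10.9, 7.37 and 6.65 in controls. Within PDN, these 3 genes were lowest in PDN 1, where Per1 was highest. Over the list, PDN 1 was the lowest PDN library for 6 of the 10 tested genes and the highest for 4, which were Egr2, Nr4a1, Nr4a2 and Jun, named after their values were seen. Of 10 tested genes of this list, 5 had a positive and 5 a negative estimate, with a median of 0.01, and 0 passed in limma, also at an unadjusted p under 0.05.

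**Figure D4:**
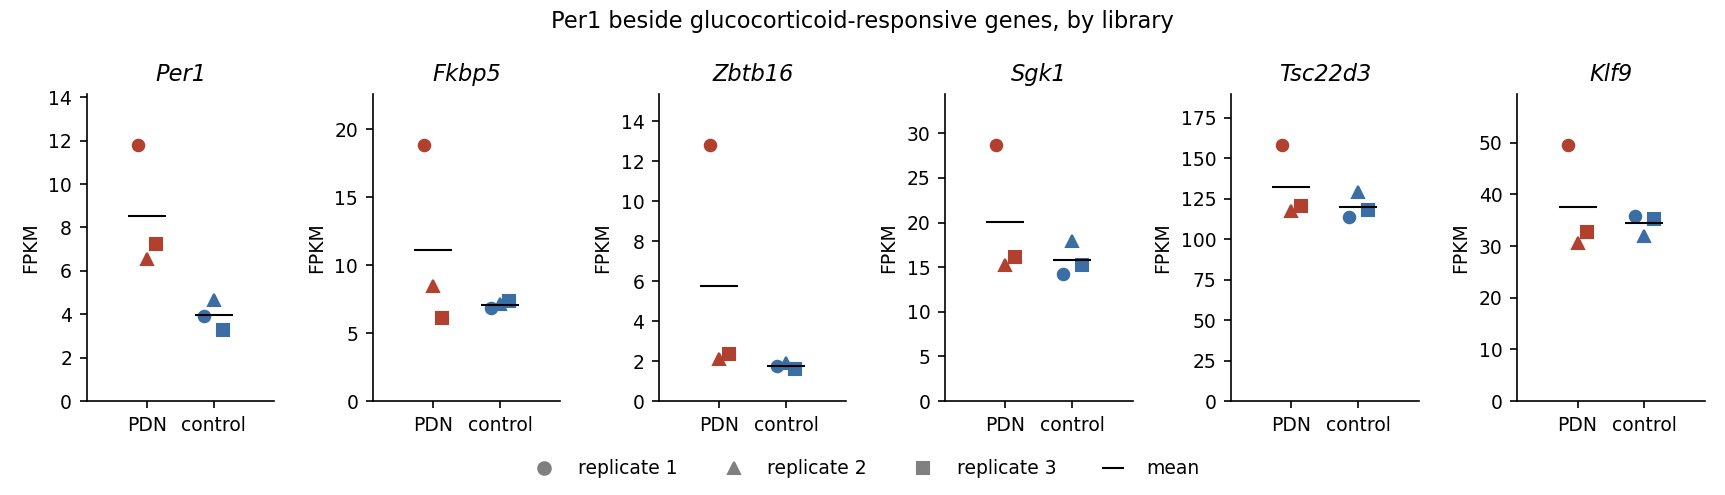
FPKM of Per1 and of 5 glucocorticoid-responsive genes in each library, with PDN on the left. Points are libraries and bars the mean of 3. PDN 1 is the highest library in every panel, at 11.8 FPKM for Per1, 18.9 for Fkbp5 and 12.8 for Zbtb16, while PDN 2 and PDN 3 also lie above all controls in the Per1 panel and, narrowly, in the Zbtb16 panel.

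Of 36 other clock genes listed, 34 were found and 29 tested. Of these, 18 had a positive and 11 a negative estimate, with a median log2 difference of 0.02, against -0.02 over all genes. None passed over all genes in limma (lowest adjusted p = 0.782), and 5 had an unadjusted p under 0.05, where the share of all tested genes was 4.72%. The groups did not overlap for 4 genes higher and 1 lower in PDN, against 3.69% of all tested genes higher and 6.24% lower. The 4 were Tef, Bhlhe41, Csnk1e and Wee1, and the other was Fbxw11, named after its values were seen.

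The PAR bZIP factors, transcription factors that activate through D-boxes, and Nfil3, which can repress through them, differed among themselves. Dbp, the output gene most closely tied to E-boxes, was at 16.9, 8.05 and 21.8 FPKM in PDN, against 10.9, 6.45 and 7.45 in controls. PDN 2 lay below control 1, so the groups overlapped, and the log2 difference of 0.77 ± 0.34 (SE) had a limma adjusted p of 0.999. Dbp was lowest in PDN 2 and in control 2 within their groups, as Nr1d1 was. Tef was at 27.3, 28.4 and 28.8 FPKM in PDN, against 23.1, 23.9 and 23.9 in controls, a log2 difference of 0.25 ± 0.06 (SE) with a limma adjusted p of 0.782. Hlf was at 2.25, 1.74 and 1.27 FPKM in PDN and at 2.30, 2.24 and 1.94 in controls. Nfil3, a repressor at the same D-boxes, was at 1.79, 1.45 and 0.895 in PDN and 1.18, 1.84 and 1.50 in controls.

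Among E-box regulators, Bhlhe41 (DEC2), a repressor, was at 12.0, 7.80 and 8.93 FPKM in PDN, against 6.20 to 7.70 in the controls, and PDN 1 was again the highest library. Its log2 difference of 0.39 ± 0.15 (SE) had a limma adjusted p of 0.999. Bhlhe40 (DEC1) was at 5.95, 5.33 and 6.40 FPKM in PDN and at 5.82, 5.11 and 5.06 in controls. Npas2, which can stand in for CLOCK, stayed at or under 0.363 FPKM in every library. Of the receptors that activate Arntl, Rora was at 4.04, 4.47 and 4.32 FPKM in PDN and 3.81, 4.80 and 4.47 in controls, and Rorb did not exceed 0.419.

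The casein kinase genes, whose products mark PER proteins for destruction, were far more abundant than Per2. Csnk1e was at 15.9, 16.7 and 14.8 FPKM in PDN, against 14.1, 13.1 and 13.4 in controls (log2 difference 0.21 ± 0.07, SE; limma adjusted p = 0.999). Csnk1d was at 67.1, 63.8 and 68.5 in PDN and 64.9, 58.0 and 68.4 in controls. Wee1, a cell cycle kinase gene driven by E-boxes in mouse liver, was at 8.49, 7.55 and 7.47 FPKM in PDN, against 5.97, 6.33 and 6.55 in controls, with a log2 difference of 0.28 ± 0.08 (SE) and a limma adjusted p of 0.999. Nampt, an enzyme gene of NAD synthesis, overlapped between the groups at 17.7, 19.6 and 16.7 FPKM in PDN, against 14.5, 18.4 and 15.5 in controls.

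**Figure D5:**
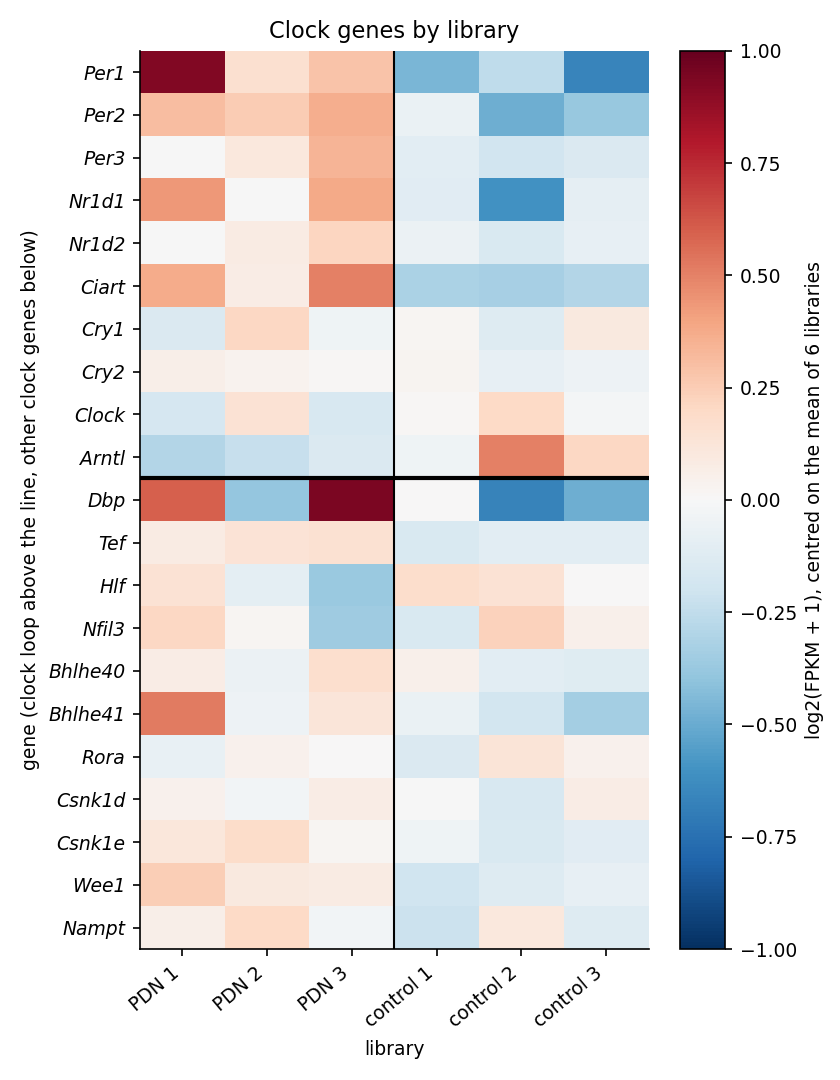
log2(FPKM + 1) of clock genes in 6 libraries, each centred on the mean of its gene, with the 10 loop genes above the line and 11 other clock genes below it. PDN libraries are on the left. Per1 is highest in PDN 1 and Dbp in PDN 3, and Nr1d1, Dbp and Per2 are lowest in control 2.

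The genes most like the loop within the groups were looked for among 11953 other tested genes, with clone and locus names left out. With the group means removed, the highest Pearson correlation with the mean of the 5 tested Per and Nr1d genes over 6 libraries was that of Paqr4 (0.997), followed by Clec7a, Tenm4, Igdcc4 and Tmem108 (0.9955). The lowest were those of Gtf2a2 (-0.999), Ccnh, Plekhf2, Cnot2 and Idi1 (-0.996). Dbp reached 0.944 and Bhlhe40 0.892, whereas Tef was at -0.519. For Arntl the most alike genes were Atrip (0.996), Tmem121, Rgs2, Nup205 and Cdan1 (0.994). With 6 libraries and so many genes such values are common, and 304 genes exceeded 0.95 in size for the first profile.

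Marker lists of other cells were summed in each library. The summed FPKM of 7 fibroblast and matrix genes was 327 to 368 in PDN and 382 to 423 in controls, without overlap. For 9 of 10 macrophage genes it was 26.4 to 36.0 in PDN and 35.9 to 49.8 in controls, and for 6 of 7 red blood cell genes 86.8 to 206 in PDN and 176 to 281 in controls, both with overlap. No found gene of these 3 lists was at 0 in any library. The 18 sensory neuron genes summed to 9582 to 10755 in PDN and 9704 to 11105 in controls. Sums of the satellite glia, Schwann cell and endothelium lists overlapped between the groups. Estimates for the 7 tested macrophage genes were 1 higher and 6 lower, and 4 genes did not overlap, all lower in PDN. All 7 fibroblast and matrix genes were lower, 3 without overlap, and all 4 tested red blood cell genes, 1 without overlap. Sensory neuron genes were 9 higher and 9 lower, with 2 higher genes without overlap. Schwann cell genes were 4 higher and 5 lower, with 1 lower gene without overlap. Of 9 satellite glia genes, 2 estimates were higher and 7 lower, and 3 genes did not overlap, all lower in PDN. Of 7 endothelium genes, 1 was higher and 6 lower, with 1 higher and 2 lower genes without overlap. The share of all tested genes without overlap was 3.69% higher and 6.24% lower. The part of these differences in the values of the clock genes was not tested.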

How the data were processed

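RNA was extracted with Trizol and made into strand-specific libraries, per the labels' protocols. The FPKM values are those the authors deposited for 22536 genes, with gene names and loci. Aligner, quantifier, annotation and build: not given in the sources used here. A second deposited table of whole numbers, named for read counts, was treated as a score and not as counts: of its values over 1000, 54.7% to 55.1% per library equalled FPKM × genomic span × 1 constant per library (relative tolerance 0.001) and none lay above. A count model was therefore not used. From these constants a depth of 51856000 to 62786000 fragments per library was derived. That step assumes that the score is FPKM scaled back to fragments over genomic span, which was not tested. Fragments per gene are unknown, so no counting interval is given.

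The 13282 genes that reached an FPKM of 1 in 3 or more libraries were fitted in limma 3.58.1 (R 4.3.3) on log2(FPKM + 1), with group as the model's term and a trended variance prior. P-values were adjusted by the Benjamini-Hochberg method across these genes (threshold 0.05). Differences are PDN minus control, and understate the change of genes with low FPKM. The fit was tested on simulated data. The labels do not tie the libraries to separate collections beyond 3 rats per group, so the p-values measure the spread between these libraries.

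The 10 loop genes and the gene lists were chosen with earlier results of these data known. Genes named in the text are the loop genes, a set list of other clock genes, 5 glucocorticoid-responsive and 3 immediate early genes, the genes closest to the loop or to Arntl by correlation within the groups, and a few cell markers; 2 genes of that rule are not reported here. Loci are printed as the deposited table gives them. Promoter sequences come from RefSeq (GRCr8), matched by symbol, Ensembl identifier or synonym, and coordinates of the builds were not mixed. Alternatives were another pseudocount, other filters and scalings, the whole-number table, a replicate block, and libraries left out.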

Additional observations from a re-analysis of the deposited data

How the results depend on the processing

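The count of genes past an adjusted p of 0.05 over all genes was 0, and 0 with a pseudocount of 0.1, the stricter filter (mean FPKM of 2) and both other scalings; it was 1 with no filter, 3 with the whole-number table and 9 without control 2 and PDN 3. Leaving out 1 library gave 0 to 6 genes, with 6 without PDN 3, 4 without PDN 1, 3 without control 1 and 2 without control 3; the cause was not tested. None of the other clock genes passed in any setting. Same-numbered libraries deviated from their group means with correlations of 0.171, -0.12 and -0.0865. Of 6 libraries, 2 were closest to their own number in the other group. No pairing by number was seen, but with 3 libraries a group this check could miss one. With the replicate block the count stayed 0, and at an unadjusted p under 0.05 it was 329 higher and 520 lower. The block leaves differences of group means unchanged by design, so it is no check of the Per2 to Arntl ratio. The Per2 to Arntl log2 ratio difference, 1.07, was 1.52 with a pseudocount of 0.1, and 0.84 to 1.32 when 1 library was left out. It was 1.70 with the whole-number table, where a pseudocount of 1 is small beside Per2 scores of 2270 or more. The share of the product, given below, also differs for Arntl, and its part was not tested. Loop genes without overlap between the groups ran from 5 of 8 with the stricter filter to 8 of 9 with the whole-number table. With no filter they were 7 of 10. The share of all genes without overlap was not computed for the alternatives, and groups separate more easily with fewer libraries. Nothing is read from these counts. Of the loop genes, Cry1 alone turned sign, in 3 of 12 alternatives (-0.09 to 0.09). The 12 include the replicate block, which cannot change these differences. The whole-number table gave log2 differences of 1.03 for Per2, 0.52 for Per3, -0.67 for Arntl, -0.26 for Clock and 1.48 for Ciart. For Per2 its values equal the FPKM product within rounding, so they are no second measurement. FPKM with a pseudocount of 0.1 gave 0.96 for Per2 and 1.32 for Ciart. For Per3, Arntl and Clock the shares of the product given below also differ between libraries, and their part was not tested. The correlation of Arntl with the Per and Nr1d mean ran between -0.97 without PDN 2 and -0.23 without control 1. The 14 positive glucocorticoid-responsive genes became 8 without PDN 1, an alternative chosen after seeing the data. With 3 libraries a group and no count per gene, low genes such as Ciart and Per2 are the least certain.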

Other observations

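The deposited whole-number table gives the loop genes different shares of the product of FPKM, genomic span and library constant. It equalled the product, within rounding, for Per1, Per2, Cry1 and Cry2. The share was 91.7% for Nr1d1 in all 6 libraries, and for Ciart 81.6% to 81.8% in PDN and 82.3% to 85.4% in controls. For Arntl it was 54.4% to 57.1% in PDN and 58.6% to 61.6% in controls, without overlap. For Per3 it was 32.5% to 33.6% in PDN and 27.0% to 33.3% in controls, and for Clock 51.7% to 69.7% in PDN and 63.0% to 67.1% in controls.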
